A study of Mus musculus with 14 samples.

Results

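A set of 10 genes that mark oligodendrocyte progenitors, or the committed cells that follow them, was read in cultured mouse neural stem cells with and without the transcriptional repressor Cic, each kept with or without EGF. The 10 genes are Pdgfra, Cspg4, Gpr17, Neu4, Bcas1, Lhfpl3, Vcan, Tnr, C1ql1 and Matn4, taken from a written list of progenitor and late-progenitor genes out of 23152 genes on the array. The list was chosen with earlier results of these data known. All 10 genes were on the array, and all 10 passed the filter on dim genes that left 17364 genes for testing. The value of a gene is the median of the probesets that name it alone, on the log2 scale, so that 1 unit is a doubling.

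The cultures were made at postnatal day 4 from the mouse subventricular zone, a layer beside the lateral ventricles that holds stem cells for neurons and for both kinds of macroglia. Each of the 7 cultures, called clones, was started from its own animal and transduced with an adenovirus carrying Cre recombinase, those with Cic and those without it alike. Clones 5 to 7 are Cic-/-, from animals with a conditional (floxed) Cic allele, and clones 1 to 4 are Cic+/+. NeuroCult proliferation medium with EGF or lacking it was given to each clone for 24 h. The array groups were 3 Cic-/- arrays with EGF, 3 Cic-/- arrays without EGF, 4 Cic+/+ arrays with EGF and 4 Cic+/+ arrays without EGF. Clones of 1 genotype differ by animal, while the 2 media of a clone share the animal.

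Oligodendrocyte progenitors divide in response to PDGF, which they receive through the receptor encoded by Pdgfra, and carry the proteoglycan NG2, the product of Cspg4, on their surface. On leaving the cycle they lose Pdgfra and pass through a committed stage marked by Gpr17 and Bcas1 before they make myelin. EGF keeps neural stem cells of this region dividing, and Cic represses its target genes until ERK, activated by growth factors, releases them.

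Cic checked the labels. With EGF its level was 7.55, 7.67 and 7.40 in Cic-/- clones 5 to 7 and 9.41 to 9.69 in the Cic+/+ clones. Without EGF it was 7.27, 7.48 and 7.04 in Cic-/- clones and 9.18 to 9.64 in the Cic+/+ clones. Array medians lay between 6.49 and 6.54, and the correlations between arrays over genes lay between 0.959 and 0.988. Clone 4, a Cic+/+ clone, stood apart in Xist, the RNA of the inactive X chromosome of female cells, at 4.73 with EGF and 3.83 without, while the other 12 arrays had 11.96 to 12.57. The mean level of 10 neural stem cell markers lay between 9.91 and 10.30 across the arrays, and that of 15 other progenitor genes between 8.58 and 9.84. The mean level of 8 microglial markers stayed between 5.11 and 5.504 and that of 7 endothelial markers between 4.69 and 5.34, close to the limit of 4.40 under which genes were left out as dim. Among the endothelial markers Flt1 stood apart, at 7.34 to 9.17, while every other one was at 5.97 or lower. In these cultures, fewer cells of a type and less RNA per cell cannot be told apart.

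Promoter sequences of Pdgfra and Tnr are printed because Pdgfra fell in Cic-/- with EGF and Tnr was lower with EGF in every clone. They are the 250 bases before the RefSeq start of the gene on the mouse build GRCm38.p6, plus strand, in lower case. In the Pdgfra window, chr5:75152001-75152250, capitals mark an E-box (CANNTG), which begins at position -182 relative to the gene's start. In the Tnr window, chr1:159523519-159523768, capitals mark a Sox core motif (CTTTGT) at position -220.
Pdgfra: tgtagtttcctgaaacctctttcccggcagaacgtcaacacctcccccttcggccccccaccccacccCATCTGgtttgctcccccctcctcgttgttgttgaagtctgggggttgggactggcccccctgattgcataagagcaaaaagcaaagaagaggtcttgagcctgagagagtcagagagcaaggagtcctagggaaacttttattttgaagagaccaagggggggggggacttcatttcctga
Tnr: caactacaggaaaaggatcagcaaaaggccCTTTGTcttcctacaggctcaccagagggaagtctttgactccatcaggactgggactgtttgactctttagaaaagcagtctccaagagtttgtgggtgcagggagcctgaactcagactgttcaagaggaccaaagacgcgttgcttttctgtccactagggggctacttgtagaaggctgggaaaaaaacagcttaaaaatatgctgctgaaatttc
RefSeq windows were matched for 7 of the 10 genes, 8 windows in all, and not for Bcas1, C1ql1 and Gpr17. The octamers TGAATGAA and TGAATGGA, known as the motif bound by capicua, were found on either strand in 0 of the 8 windows, while 2.07% of all 32851 promoter windows hold one. An E-box was present in 66.2% of all windows and the Sox core in 16.5%. Each printed window held the 1 motif site marked in it and none of the other motif.

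**Figure D1:**
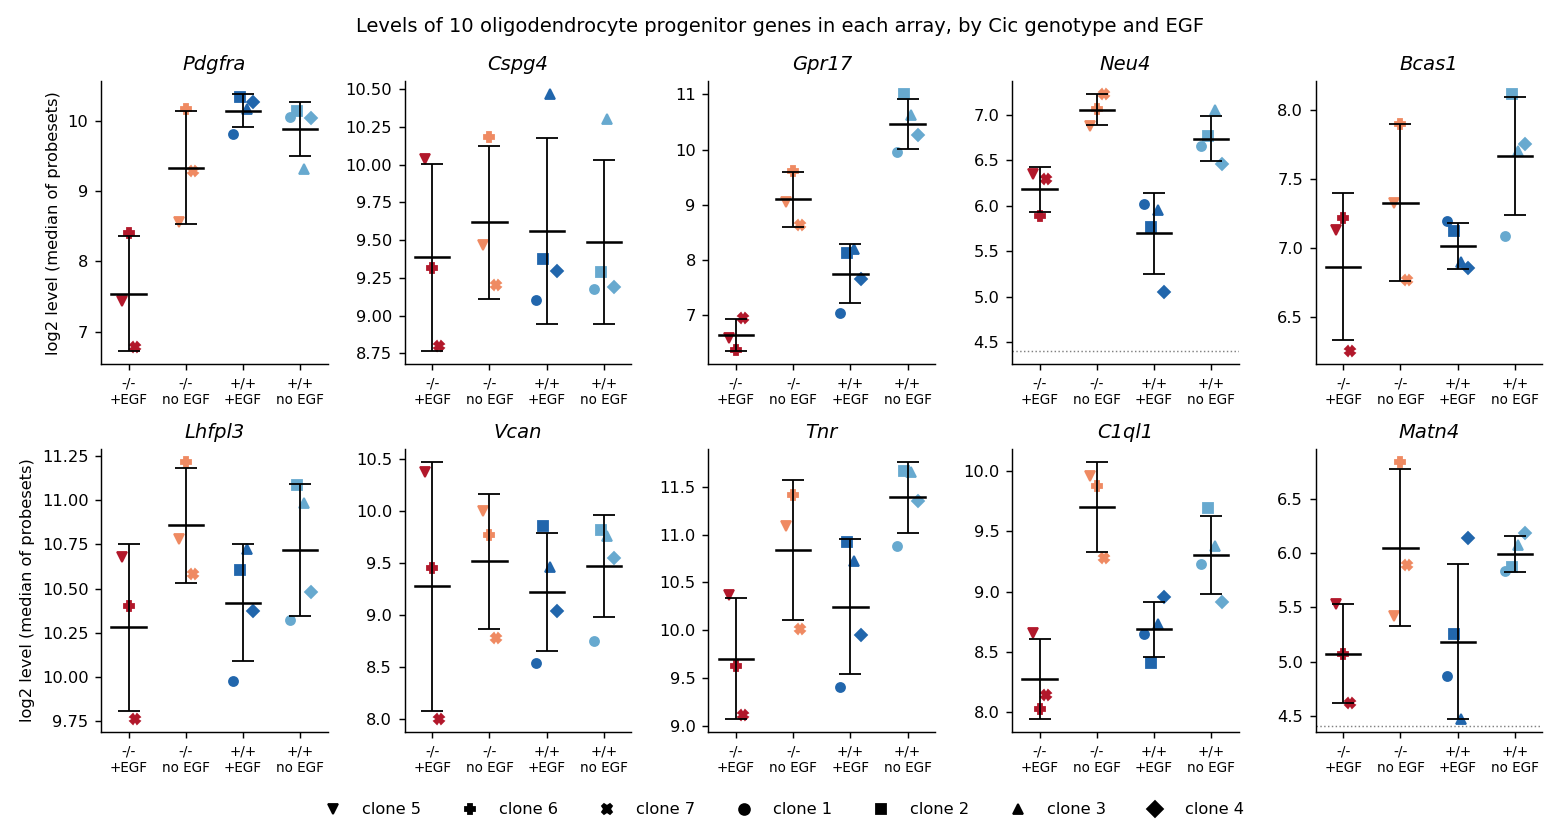
Log2 level (median of probesets, y axis) of the 10 genes in each of the 14 arrays, with genotype and medium on the x axis, symbols for the 7 clones, and lines for the group mean and SD. The y axes differ between genes and do not start at 0, and the dotted line where shown is the limit for dim genes. Pdgfra is lowest in the 3 Cic-/- arrays with EGF, from 6.78 to 8.40, while Gpr17 is low in both genotypes with EGF.

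Pdgfra, the receptor for PDGF-A and PDGF-C homodimers, was the 1 gene of the 10 that passed the test between genotypes. With EGF its level was 7.44, 8.40 and 6.78 in Cic-/- clones 5 to 7, against 9.81, 10.34, 10.17 and 10.27 in Cic+/+ clones 1 to 4. The highest Cic-/- array thus lay under the lowest Cic+/+ array, and the means were 7.54 ± 0.82 (SD, n = 3) in Cic-/- and 10.15 ± 0.24 (SD, n = 4) in Cic+/+. The gene fell by 2.61 on the log2 scale in Cic-/- (SE 0.38), which is 6.09-fold (limma with Benjamini-Hochberg adjustment over 17364 genes, adjusted p = 0.0082), and it held rank 6 from the most negative change among those genes. Of all genes tested in this comparison, 0.317% passed and 0.242% fell. With both arrays of clone 2 or of clone 4 left out, the adjusted p was 0.0580 and 0.0559, with changes of -2.54 and -2.56.

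Without EGF the Pdgfra levels of the genotypes overlapped. They were 8.56, 10.17 and 9.28 in Cic-/- clones and 10.05, 10.15, 9.32 and 10.04 in Cic+/+ clones, a difference of -0.55 ± 0.38 (adjusted p = 0.654; 95% interval from -1.37 to 0.26). Clone 6 lay at the level of the Cic+/+ clones and clones 5 and 7 lay below them all. None of the 10 genes passed in this comparison, where 0.553% of all genes did. By limma 1 of the 10, Gpr17, had an unadjusted p under 0.05. The share of all genes under that limit is not given, so this count is not a result about the 10 genes.

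**Figure D2:**
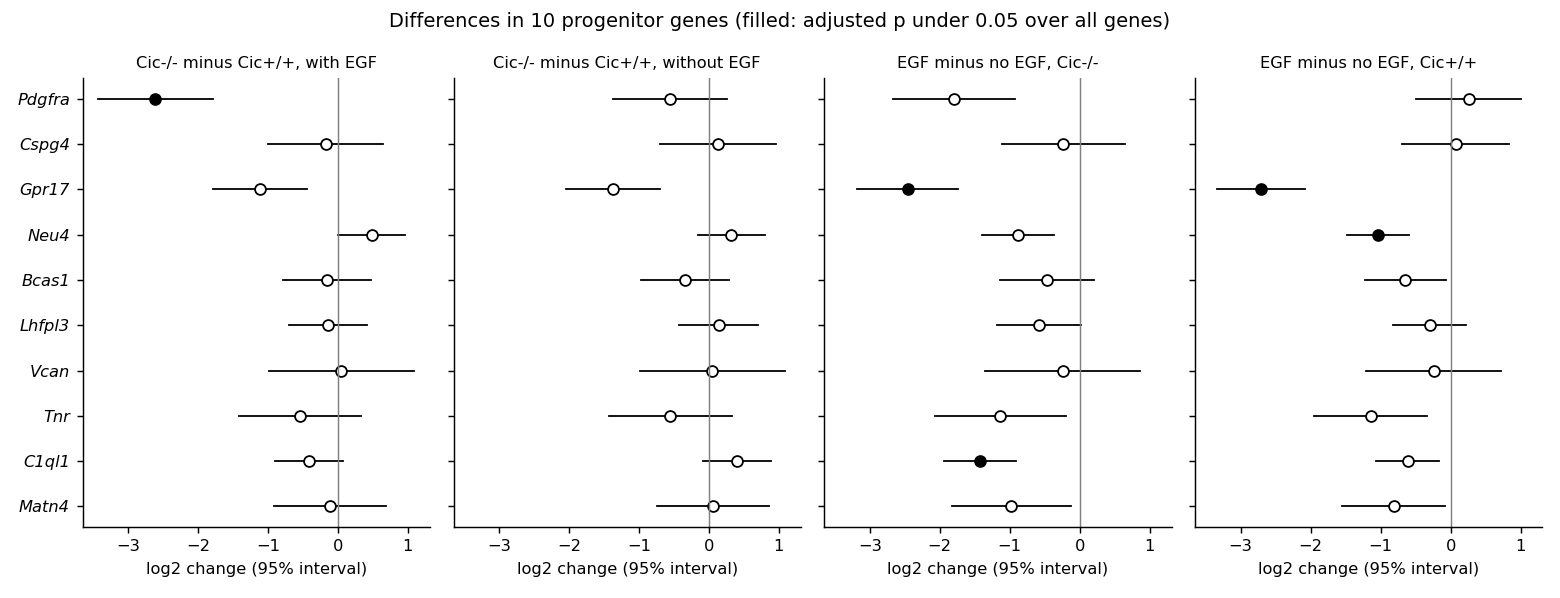
Log2 change of each gene with its 95% interval (x axis) in 4 comparisons, with filled points for an adjusted p under 0.05 over all genes. In the genotype comparison with EGF the Pdgfra point lies at -2.61, and in both comparisons of media the Gpr17 point lies below -2.

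Pdgfra followed the medium in the Cic-/- clones. The level with EGF minus that without EGF was -1.12, -1.76 and -2.50 in Cic-/- clones 5 to 7, and -0.24, 0.20, 0.84 and 0.24 in Cic+/+ clones 1 to 4. All 3 Cic-/- clones were lower with EGF, and 3 of the 4 Cic+/+ clones were higher. The mean EGF difference was -1.80 ± 0.69 (SD, n = 3) in Cic-/- and 0.26 ± 0.45 (SD, n = 4) in Cic+/+.

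Pdgfra was the 1 of the 10 genes whose per-clone differences did not overlap between genotypes, and it lay lower in Cic-/-, as did 2.84% of all genes without overlap. The exact two-sided permutation test of clones gave p = 0.0571, the smallest that 3 clones against 4 can give, and 0.571 when adjusted over the 10 genes tested in this way. In the limma fit over all genes the difference between the EGF effects was -2.05 ± 0.54, the most negative of the 17364, with an unadjusted p of 0.00186 and an adjusted p of 1.0. With the clone as a random block the adjusted p was 0.167 and as a fixed block 0.121. Of all genes 0.00576% passed in this comparison, and 0 of the 10 did by limma. Pdgfra and C1ql1, 2 of the 10, had an unadjusted p under 0.05, and the share of all genes under that limit is not given.

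Within Cic-/- alone, the EGF effect on Pdgfra was -1.80 ± 0.41, with an adjusted p of 0.0938 by limma without a block. Taking the clone into account moved it past the threshold, with an adjusted p of 0.00978 as a random block and 0.00532 as a fixed block. Within Cic+/+ the effect was 0.26 ± 0.35 (adjusted p = 0.835; 95% interval from -0.50 to 1.01). These comparisons share arrays with the genotype comparisons above, so they are not separate evidence.

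The Pdgfra difference with EGF was spread over the probesets. All 17 lay lower in Cic-/- with EGF, 16 of them by more than 1 on the log2 scale, and 11 fell when each probeset was tested on its own, where 0.083% of 233753 probesets passed. Without EGF 1 probeset, the first by number, went the other way. It stood at 9.06, 9.61 and 9.19 in Cic-/- clones without EGF, against 7.41, 8.20, 7.71 and 7.74 in Cic+/+ clones without EGF, a rise of 1.53 ± 0.26 (adjusted p = 0.0424), with no overlap. The other 16 lay lower in Cic-/- without EGF, 2 of them by more than 1. That probeset was chosen for description after its values were seen.

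**Figure D3:**
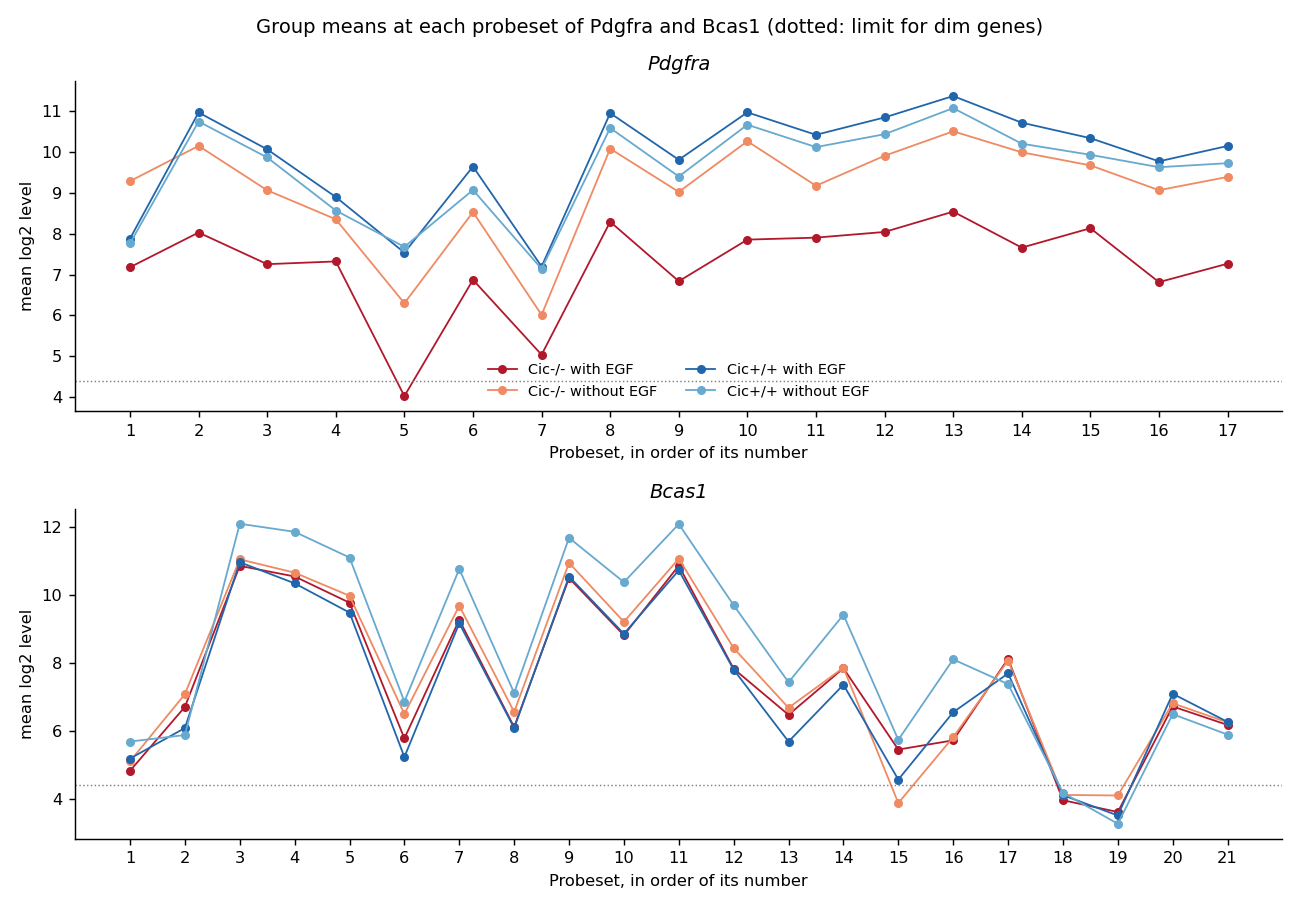
Mean log2 level of the 4 groups (y axis, not starting at 0) at each of the 17 probesets of Pdgfra and the 21 probesets of Bcas1, in order of probeset number (x axis); the dotted line is the limit for dim genes. All Pdgfra probesets are lower in Cic-/- with EGF than in Cic+/+ with EGF, the first is higher in Cic-/- without EGF than in the other 3 groups, and 14 Bcas1 probesets are lower by more than 1 with EGF than without it in Cic+/+.

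Gpr17, a G-protein-coupled receptor of committed progenitors that in mice restrains their maturation, had the widest response to EGF among the 10 genes. In Cic-/- its level was 6.58, 6.38 and 6.96 with EGF and 9.05, 9.62 and 8.63 without EGF. In Cic+/+ it was 7.05, 8.12, 8.20 and 7.66 with EGF and 9.96, 11.01, 10.63 and 10.26 without EGF. Every array with EGF lay below every array without EGF of the same genotype.

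Gpr17 fell with EGF in Cic-/- (log2 change -2.46 ± 0.34, 5.501-fold, limma adjusted p = 0.013). It also fell in Cic+/+ (log2 change -2.71 ± 0.29, 6.54-fold, adjusted p = 0.000536). It was rank 4 from the most negative change in Cic-/- and rank 5 in Cic+/+. The EGF effects of the genotypes differed by 0.25 ± 0.44, with a 95% interval from -0.70 to 1.20. The sign of that difference depended on the probeset. Of the 3 Gpr17 probesets 2 were negative and 1 was positive, from -0.90 to 0.25, and 0 passed. The share of all genes that passed was 0.19% for the EGF effect in Cic-/-, with 0.0921% falling, and 0.898% in Cic+/+, with 0.593% falling. The Cic-/- call was lost without clone 5 (adjusted p = 0.108) or clone 6 (0.252), and with only the Cic-/- arrays in the fit (0.0825).

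Gpr17 lay lower in Cic-/- in both media, without passing the test. The means were 6.64 ± 0.29 in Cic-/- and 7.76 ± 0.53 in Cic+/+ with EGF, and 9.10 ± 0.50 in Cic-/- and 10.47 ± 0.45 in Cic+/+ without EGF (SD, n = 3 and 4). The differences were -1.12 ± 0.31 with EGF (adjusted p = 0.182) and -1.37 ± 0.31 without it (adjusted p = 0.0718). The genotypes did not overlap in either medium. With EGF that held for Gpr17 and Pdgfra, 2 of the 10, where 5.91% of all genes lay lower in Cic-/- without overlap, and without EGF for Gpr17 alone, where 5.18% did. The difference with EGF passed when the probesets were averaged (-1.45, adjusted p = 0.046) or the brightest was taken (-2.02, adjusted p = 0.0339). Without clone 1 the difference without EGF passed (adjusted p = 0.027).

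Neu4, a sialidase that removes sialic acid from glycoproteins and glycolipids, was lower with EGF in all 7 clones. In Cic-/- its level was 6.35, 5.89 and 6.30 with EGF and 6.88, 7.07 and 7.22 without EGF. In Cic+/+ it was 6.02, 5.76, 5.95 and 5.05 with EGF and 6.66, 6.77, 7.05 and 6.46 without EGF. The media did not overlap in either genotype.

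Neu4 fell with EGF in Cic+/+, by 1.04 on the log2 scale (SE 0.21), 2.06-fold (adjusted p = 0.0315). In Cic-/- the effect was -0.88 ± 0.24 (adjusted p = 0.202), which passed with the clone as a random block (adjusted p = 0.0306) or a fixed one (0.0265). The Cic+/+ call was lost without clone 2 (adjusted p = 0.236), 3 (0.149), 4 (0.0702) or 6 (0.0586), with only the Cic+/+ arrays in the fit (0.0567) and with the brightest probeset (0.184). Between genotypes Neu4 was 0.48 ± 0.22 with EGF (adjusted p = 0.469) and 0.32 ± 0.22 without it (adjusted p = 0.661), the opposite side from Pdgfra and Gpr17.

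C1ql1, a secreted protein with a C1q domain that binds the adhesion receptor Adgrb3 in the mouse cerebellum, was lower with EGF in 6 of the 7 clones. In Cic-/- its level was 8.65, 8.03 and 8.14 with EGF and 9.96, 9.87 and 9.28 without EGF. In Cic+/+ it was 8.65, 8.41, 8.73 and 8.96 with EGF and 9.23, 9.70, 9.38 and 8.91 without EGF. The media did not overlap in Cic-/- and did in Cic+/+, through clone 4.

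C1ql1 fell with EGF in Cic-/-, by 1.43 on the log2 scale (SE 0.24), 2.69-fold (adjusted p = 0.0327). In Cic+/+ the effect was -0.62 ± 0.21 (adjusted p = 0.211), and it passed when the probesets were averaged (-0.79, adjusted p = 0.0337). The difference between the genotypes in EGF effect was -0.81 ± 0.32, with an unadjusted p of 0.0229 and an adjusted p of 1.0, so it did not pass. The Cic-/- call was lost without clone 3 (adjusted p = 0.0677), 5 (0.112), 6 (0.493) or 7 (0.0564), and with only the Cic-/- arrays in the fit (0.257). It was also lost with each probeset tested on its own, where 0 of 3 fell (limma adjusted p from 0.083 to 0.110 over 233753 probesets). Its receptor gene Adgrb3 stood at -0.28 ± 0.21 for the EGF effect in Cic-/- and -0.33 ± 0.18 in Cic+/+ (adjusted p = 0.749 and 0.503).

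**Figure D4:**
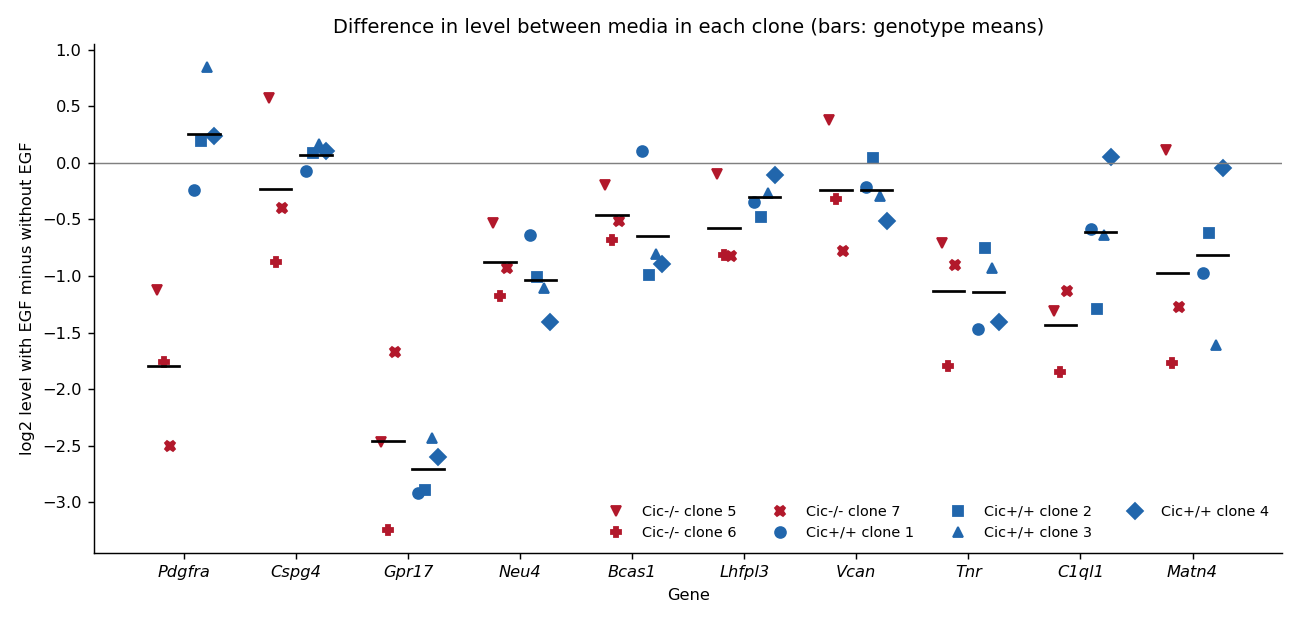
Log2 level with EGF minus without EGF (y axis) of each gene (x axis) in each of the 7 clones, with bars for the genotype means. Pdgfra is the gene whose Cic-/- clones, at -1.12 to -2.50, all lie below its Cic+/+ clones, while Gpr17 lies below -1.6 in all 7 clones.

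Across the 10 genes, EGF went with lower levels. In Cic-/- all 10 had a negative EGF effect, with a median of -0.93 against 0.01 over all genes, 2 fell and 8 did not pass. In Cic+/+ 8 of 10 were negative, with a median of -0.63 against 0.00 over all genes, 2 fell and 8 did not pass. By the arrays, 4 of 10 lay lower with EGF without overlap in Cic-/-, where 6.41% of all genes did, and 2 of 10 in Cic+/+, where 4.94% did. Gpr17, Neu4, Lhfpl3 and Tnr were lower with EGF in all 7 clones, 4 of 10 where 7.43% of all genes were. In the 3 Cic-/- clones 7 of the 10 were lower throughout, where 18.6% of genes were, and in the 4 Cic+/+ clones 5 of the 10, where 15.1% were. As the 10 genes were chosen with earlier results of these data known, these shares describe the set and do not test it.

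Among the matrix genes, Tnr encodes tenascin-R, a matrix glycoprotein of oligodendrocyte-lineage cells. In Cic-/- its level was 10.37, 9.62 and 9.12 with EGF and 11.08, 11.42 and 10.02 without EGF. In Cic+/+ it was 9.41, 10.92, 10.72 and 9.95 with EGF and 10.88, 11.67, 11.66 and 11.35 without EGF. The groups overlapped, yet each clone was lower with EGF and each of the 21 probesets had a negative EGF effect in both genotypes. The effect was -1.14 ± 0.44 in Cic-/- (adjusted p = 0.382), against -1.14 ± 0.38 in Cic+/+ (adjusted p = 0.198). With the clone as a fixed block both passed (adjusted p = 0.0229 in Cic-/- and 0.00726 in Cic+/+), and as a random block only that in Cic+/+ did (0.0835 in Cic-/- and 0.0324 in Cic+/+).

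Vcan encodes versican, a large chondroitin sulphate proteoglycan, and it passed in no comparison. With EGF it was at 10.38, 9.46 and 8.002 in Cic-/- clones and at 8.54, 9.86, 9.47 and 9.04 in Cic+/+ clones. Without EGF it was at 10.0004, 9.77 and 8.78 in Cic-/- clones and at 8.75, 9.82, 9.76 and 9.55 in Cic+/+ clones. Clone 7 was the lowest of the Cic-/- clones and clone 1 the lowest of the Cic+/+ clones in both media, and the groups overlapped. The genotype difference with EGF was 0.05 ± 0.48 (95% interval from -0.99 to 1.09).

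Matn4 encodes matrilin-4, a filament-forming matrix protein. Its level in Cic-/- was 5.53, 5.07 and 4.62 with EGF and 5.42, 6.84 and 5.89 without EGF. In Cic+/+ it was 4.87, 5.25, 4.47 and 6.14 with EGF and 5.84, 5.88, 6.08 and 6.19 without EGF. The lowest of these values are close to the dim limit of 4.40. The EGF effect was -0.98 ± 0.40 in Cic-/- (adjusted p = 0.417), against -0.81 ± 0.34 in Cic+/+ (adjusted p = 0.344).

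Of the membrane genes, Cspg4 and Lhfpl3 passed in no comparison. Cspg4 was at 10.04, 9.31 and 8.80 in Cic-/- clones with EGF and at 9.10, 9.37, 10.47 and 9.29 in Cic+/+ clones with EGF. Without EGF it was at 9.47, 10.19 and 9.20 in Cic-/- clones and at 9.17, 9.29, 10.30 and 9.19 in Cic+/+ clones. Clone 3 was the highest Cic+/+ clone in both media. With EGF the genotype difference was -0.17 ± 0.39 (95% interval from -1.0 to 0.65) and without EGF 0.13 ± 0.39 (from -0.70 to 0.96). For Pdgfra it was -2.61 with EGF and -0.55 without EGF, and Pdgfra was not tested against Cspg4. NG2 is also made by pericytes, and the 9 mural cell markers had mean levels per array of 6.34 to 6.92 in Cic-/- with EGF and 5.89 to 6.58 in Cic+/+ with EGF, with 0 of 9 passing in the 5 comparisons. That mean covers a split list. Acta2 ran from 8.45 to 12.22 over the arrays, highest in clones 1 and 7, and Notch3 from 7.94 to 9.80. Tagln ran from 4.82 to 8.71, and every other marker of the list was at 6.87 or lower. The part of mural cells in the Cspg4 level was not tested.

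Lhfpl3, a tetraspan-like membrane protein gene enriched in progenitors, was at 10.68, 10.40 and 9.76 in Cic-/- clones with EGF and at 9.98, 10.61, 10.72 and 10.37 in Cic+/+ clones with EGF. Without EGF it was at 10.78, 11.22 and 10.58 in Cic-/- clones and at 10.32, 11.09, 10.99 and 10.48 in Cic+/+ clones. It was lower with EGF in all 7 clones, by 0.10 to 0.82, and passed in neither genotype. The EGF effect was -0.58 ± 0.28 in Cic-/- (adjusted p = 0.536), against -0.30 ± 0.24 in Cic+/+ (adjusted p = 0.671).

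Bcas1, which marks oligodendrocytes on the way to forming myelin, gave different answers by probeset. Its gene value was 7.13, 7.22 and 6.26 in Cic-/- clones with EGF and 7.33, 7.90 and 6.77 in Cic-/- clones without EGF. In Cic+/+ clones it was 7.19, 7.12, 6.90 and 6.86 with EGF and 7.09, 8.11, 7.70 and 7.75 without EGF. The EGF effect of the median was -0.46 ± 0.31 in Cic-/- (adjusted p = 0.704), against -0.65 ± 0.27 in Cic+/+ (adjusted p = 0.337).

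Among the 21 Bcas1 probesets, 0 lay lower with EGF by more than 1 on the log2 scale in Cic-/-, and 14 did in Cic+/+. Without EGF 16 of the 21 lay lower in Cic-/- than in Cic+/+, 10 of them by more than 1, and 5 lay higher, 1 of them by more than 1 (log2 change 1.20 ± 0.30, adjusted p = 0.213). A single probeset of the 10 fell when tested on its own (log2 change -2.29 ± 0.37, adjusted p = 0.0299), where 0.166% of all probesets passed. Averaged over its probesets, Bcas1 fell with EGF in Cic+/+ by 0.94 (SE 0.20, adjusted p = 0.0364), while in Cic-/- the effect was -0.19 ± 0.23 (adjusted p = 0.84). The difference between those EGF effects, 0.76 ± 0.31, did not pass (adjusted p = 1.0). Probesets of 1 gene share its RNA and are not replicates.

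Clones carried their own offsets in these genes. Averaged over both media, 9 of the 10 genes lay below the group mean in clone 7 and 9 of 10 in clone 1, while 8 of 10 lay above it in clone 6 and 8 of 10 in clone 2. Clone 7 lay below by 1.01 in Vcan and by 0.70 in Tnr, and clone 6 lay above by 0.85 in Pdgfra. Clone 4, the clone that differed in Xist, had 8 of 10 below its group mean.

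Over the 14 arrays the genes most like Pdgfra, by Pearson correlation among 14606 genes, were Rab9b (0.919), C2cd5 (0.897), Isyna1 (0.888), Stmn3 (0.886), Anapc5 (0.86), Samd11 (0.855), Stk32a (0.848) and Rlbp1 (0.835). Rab9b had a mean of 4.85 in Cic-/- with EGF, 5.69 in Cic-/- without EGF, 6.33 in Cic+/+ with EGF and 6.46 in Cic+/+ without EGF. Those most like Gpr17 were Ddhd1 (0.961), Lims2 (0.948), Kctd5 (0.941), Sfxn5 (0.940), Igsf9b (0.935), Fa2h (0.920), Gatm (0.919) and Mt3 (0.914). Fa2h, the hydroxylase that makes the hydroxy fatty acids of myelin lipids, averaged 6.08 in Cic-/- with EGF, 7.72 in Cic-/- without EGF, 6.16 in Cic+/+ with EGF and 9.03 in Cic+/+ without EGF. Among the 10 genes themselves, Pdgfra correlated at most at 0.535, with Gpr17, and Gpr17 at 0.864 with Tnr. These arrays share clones and groups, so the values describe likeness only.

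Of 15 other progenitor genes, 0 passed in either genotype comparison, in Cic-/- with EGF against without, and in the difference between EGF effects, and 2 fell with EGF in Cic+/+. Those were Lims2, a focal adhesion adaptor, by 1.84 on the log2 scale (adjusted p = 0.0163), and Gpr37l1, a glial receptor, by 1.24 (adjusted p = 0.0139). In Cic-/- the EGF effect was negative in 14 of the 15 and positive in 1, with a median of -0.58. In Cic+/+ it was negative in 13 of the 15 and positive in 2, with a median of -0.28. By limma, 8 had an unadjusted p under 0.05 in Cic-/- and 5 in Cic+/+. These counts describe the list and do not test it, and the shares of all genes under that limit are not given. Luzp2 averaged 6.37 ± 1.43 in Cic-/- with EGF and 9.10 ± 0.62 in Cic+/+ with EGF (SD, n = 3 and 4), a difference of -2.73 ± 0.95 that did not pass (adjusted p = 0.298). Sox10, the transcription factor of the lineage, was at -1.53 ± 0.43 in the same comparison (adjusted p = 0.176).

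Of 13 genes of committed and newly formed oligodendrocytes, 0 fell with EGF in Cic-/- and 5 in Cic+/+. Between genotypes 1 fell in Cic-/- with EGF and 5 without EGF. Enpp6, a choline phosphodiesterase of newly formed oligodendrocytes, fell in Cic-/- without EGF (adjusted p = 2.96e-07), with levels of 3.99, 4.85 and 4.83 in Cic-/- clones 5 to 7 against 8.34 to 8.67 in the Cic+/+ clones. Its difference in EGF effect passed as well (adjusted p = 0.000147), the 1 gene of all tested that did, and it was positive. The Cic-/- levels lie around the dim limit of 4.40 and were not shown to be above background, so no size is given for either change. Ugt8a, which makes galactolipids of myelin, fell in Cic-/- with a log2 change of -1.34 with EGF (adjusted p = 0.0334) and of -2.27 without EGF (adjusted p = 0.000266). Myrf, a transcription factor of myelin genes, fell in Cic-/- without EGF by 1.77 on the log2 scale (adjusted p = 0.000853), and Tmem163 by 1.76 (adjusted p = 0.00041). Among all 13 the difference in EGF effect was positive, with a median of 0.43, while among the 10 progenitor genes 5 were positive and 5 negative, with a median of -0.08.

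PDGF ligands and signalling genes did not pass. Of 17 tested, 0 passed in any of the 5 comparisons, with 2 at an unadjusted p under 0.05 in each of the 4 comparisons between groups. The shares of all genes under that limit are not given. Pdgfa, a ligand of the Pdgfra receptor, was at 0.19 ± 0.22 in Cic-/- against Cic+/+ with EGF (adjusted p = 0.832), and Pdgfc, another ligand, at 0.59 ± 0.23 (adjusted p = 0.367). Of 15 lecticans, tenascins and partners, 1 passed in 1 comparison, Adamts4, a protease that cuts lecticans, which rose with EGF in Cic+/+ by 1.01 on the log2 scale (adjusted p = 0.0315). In Cic-/- its EGF effect was 1.01 ± 0.23 (adjusted p = 0.102), and the effects of the genotypes differed by -0.0026 ± 0.31. Of 10 tested relatives of the member families, 0 passed in the 5 comparisons.

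Markers of other cell types moved in 2 lists beside these results. Of 8 astrocyte markers, 3 fell with EGF in Cic+/+, among them the water channel gene Aqp4 by 2.28 on the log2 scale (adjusted p = 0.00379), and the mean level of the 8 was 9.24 to 10.01 with EGF against 10.41 to 10.88 without EGF in Cic+/+. In Cic-/- it was 9.41 to 9.66 with EGF and 10.04 to 10.27 without EGF, with 0 of 8 passing. Of 10 neuroblast and neuron markers tested, Cd24a rose in Cic-/- without EGF by 1.33 (adjusted p = 0.0069), and 0 passed between media in either genotype. Among the 10 tested, the EGF effect was positive in 4 and negative in 6 in Cic-/-, and positive in 6 and negative in 4 in Cic+/+. Dcx, a microtubule protein of neuroblasts, was lower with EGF in all 7 clones, as were 7.43% of all genes. It averaged 6.47 ± 1.01 with EGF and 9.21 ± 0.72 without EGF in Cic-/- (SD, n = 3). The media did not overlap there, where 6.41% of all genes lay lower with EGF without overlap. The EGF effect on Dcx in Cic-/- was -2.74 ± 0.54 (limma adjusted p = 0.0518). In Cic+/+ it averaged 7.97 ± 0.51 with EGF and 9.19 ± 0.80 without EGF (SD, n = 4), an effect of -1.22 ± 0.46 (adjusted p = 0.274). The effects differed by -1.51 ± 0.71 (adjusted p = 1.0), on the same side as those of Pdgfra, and Dcx was picked after its values were seen. The mean level of the 11 markers on the array was 6.52 to 6.64 with EGF and 6.95 to 6.99 without EGF in Cic-/-, and 6.44 to 6.80 with EGF and 6.61 to 6.72 without EGF in Cic+/+. The part of these cell types in the results on the 10 genes was not tested.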

How the data were processed

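Gene expression was measured on 14 arrays, and the deposited log2 values of probesets are RMA output, per the submitters' processing notes; the sources used here give neither the RMA version nor the annotation build of the array. Probesets were named through the platform annotation with symbols updated through RefSeq (GRCm38.p6). A gene's value is the median of the probesets naming it alone (233753 of 269751 probesets). The lowest 25% of genes by mean level were left out. Tests were made with limma 3.58.1 in R 4.3.3 on 4 group means over all arrays, with Benjamini-Hochberg adjustment over 17364 genes and a call at an adjusted p under 0.05. The EGF difference per clone was set between genotypes by an exact two-sided permutation test. Rose and fell are used of genes that passed, and changes are given ± SE.

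Clones are paired across media by the labels: deviations of the 2 media of a clone correlated at 0.156 to 0.616. Each clone correlated more with its own second medium than with another clone of its genotype. In clone 6 the margin was small, at 0.156 against 0.120. Alternatives were the mean or brightest probeset, other dim filters, a trended prior, centring, quantile normalization, the clone as a block, only the arrays compared, leaving out both arrays of a clone, and, added after seeing the data, each probeset alone. The members and lists were chosen with earlier results of these data known. All 10 members are named, up to 4 passing genes of each other list, up to 2 not passing where few pass, and the 8 genes most like Pdgfra and Gpr17. Some listed genes are not reported here. The procedure was checked on simulated data. The number of arrays limits the precision.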

Additional observations from a re-analysis of the deposited data

Results flagged for a closer look

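Among 20 groups of 4 arrays examined for a value far from the rest, 2 stood out, and chance gives about 1 in 20. Both are clone 3 in Cic+/+ without EGF. Its Pdgfra level of 9.321 lay below the other clones of that group, at 10.036 to 10.145, and its Cspg4 level of 10.302 lay above the others, at 9.174 to 9.286. With EGF the same clone had a Pdgfra level of 10.17, within the range of the other Cic+/+ clones, and the highest Cspg4 level of them, 10.47.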

How the results depend on the processing

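Counts of the 10 genes that passed changed under these settings. Genotype difference with EGF, 1 gene: 2 with the mean of probesets and 2 with the brightest, and 0 to 1 on leaving out a clone. Genotype difference without EGF, 0 genes: 2 with each probeset on its own, and 0 to 1 on leaving out a clone. EGF effect in Cic-/-, 2 genes: with the clone as a replicate block 4 (random) and 5 (fixed), 0 with only the arrays compared, and 0 to 2 on leaving out a clone. With each probeset on its own that count stayed the same, Pdgfra taking the place of C1ql1. EGF effect in Cic+/+, 2 genes: 4 with the mean of probesets, 1 with the brightest, 1 with only the arrays compared, 3 with either block, and 1 to 2 on leaving out a clone. The count for the difference in EGF effect was 0 in every setting run. Genes whose per-clone EGF differences did not overlap, 1 gene: 2 with the mean of probesets and 2 with the brightest, and 1 to 3 on leaving out a clone, with Pdgfra in each. With fewer clones a lack of overlap comes more easily for any gene. The shares of all genes without overlap in these settings are not given, so these counts do not show that the result is robust. The block changed no other call than those of Pdgfra, Neu4 and Tnr given above. Shares of all genes passing are given for the main setting only. A change in these counts is therefore not a result about the 10 genes, as all genes may have changed alike.

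Some values that did not pass in the main setting changed sign under another, and not all of them stayed near 0. For the genotype difference with EGF, the mean of probesets gave 0.13 for Bcas1, -0.034 for Vcan and 0.048 for Matn4, and the brightest -0.045 for Vcan. Without EGF, the brightest gave -0.14 for Cspg4, -0.055 for Lhfpl3 and -0.48 for Matn4, and the mean -0.27 for Matn4. For the difference in EGF effect, the mean gave -0.38 for Gpr17, -0.10 for Vcan and 0.31 for Matn4, and the brightest -0.90 for Gpr17, -0.062 for Vcan, -0.037 for Tnr and 0.018 for Matn4. There, centring gave -0.034 for Vcan and -0.032 for Tnr, and quantile normalization -0.024 for Tnr. On leaving out a clone, the genotype difference with EGF ran from -0.50 to 0.13 for Cspg4, -0.32 to 0.16 for Bcas1, -0.34 to 0.12 for Lhfpl3, -0.50 to 0.69 for Vcan and -0.35 to 0.21 for Matn4. Without EGF it ran from -0.15 to 0.40 for Cspg4, -0.038 to 0.28 for Lhfpl3, -0.19 to 0.42 for Vcan and -0.34 to 0.37 for Matn4. The EGF effect in Cic-/- ran from -0.64 to 0.085 for Cspg4 and -0.55 to 0.029 for Vcan. The difference in EGF effect ran from -0.71 to 0.014 for Cspg4, -0.15 to 0.64 for Gpr17, -0.011 to 0.31 for Neu4, -0.31 to 0.27 for Vcan, -0.21 to 0.33 for Tnr and -0.71 to 0.23 for Matn4. None of these reversed values passed the test, and the cause was not tested. Matn4 had the lowest mean level of the 10 genes, nearest to the dim limit of 4.40.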
